A study of Mus musculus with 81 samples.

Results

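Use of the Trav genes, which encode variable segments for the alpha chain of the T-cell receptor, was followed through normal thymus and thymic lymphoma of the mouse. Every gene whose symbol starts with Trav was taken, which gave 128 of the 51826 genes measured. All 128 lie on chromosome 14 on the plus strand, in an array of 1549.8 kb at chr14:52427928-53977678 (GRCm38, GENCODE M21). The annotation lists 108 of them as variable segments and 20 as pseudogenes of such segments. Of the 128 genes, 124 had counts in at least 1 mouse and 4 had none.

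RNA sequencing covered 81 libraries from 40 mice of the cross C57BL/6 x 129S4Sv/Jae. All of them, the normal mice included, carried Plk4(Col1a1), a transgene that doxycycline induces through rtTA(Rosa), together with centrin-GFP(Rosa). The groups were 8 normal thymuses (p53+/+, no doxycycline, 8 libraries), 10 untreated lymphomas (p53-/-, no doxycycline, 23 libraries), 9 treated lymphomas that were p53-/- (18 libraries) and 12 treated lymphomas that were p53+/- (31 libraries). Treatment was 2 weeks of doxycycline that began at the age of 30 days. From 13 of the 31 lymphomas, 4 or 5 biopsies were sequenced separately, and these were summed into 1 value per mouse for comparisons between groups. A single p53+/- normal thymus (mouse 819) entered no main test. No untreated p53+/- lymphoma was analysed here.

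A T cell builds its alpha chain by joining 1 variable segment to 1 joining segment (Traj), which is then spliced to the constant segment Trac. The beta chain (Trbv segments) is rearranged earlier, at the stage when thymocytes carry neither CD4 nor CD8. Cells carrying the same beta chain then divide before each of them rearranges alpha, often on both chromosomes and more than once, moving outward to more distant segments. The delta chain genes, among them the constant segment Trdc, lie between Trav and Traj and are cut out when alpha is joined. Variable segments with dv in their name can join either chain.

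Several leading segments exist as near-identical copies, marked d or n in the symbol, that arose by duplication of part of the array. The last 60 bases of segments that led lymphomas or single biopsies, and of some of their copies, are shown here to make visible which of them a short read can tell apart. They come from GENCODE M21 transcripts, run 5′ to 3′ on the plus strand, and have in capitals the cysteine codon that closes the framework before the joined end. It was taken as the last TGT or TGC after TAT or TAC and any codon (NNN).
Trav11: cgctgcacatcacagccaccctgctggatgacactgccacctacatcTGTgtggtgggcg
Trav11d: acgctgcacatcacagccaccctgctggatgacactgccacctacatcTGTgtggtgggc
Trav8-1: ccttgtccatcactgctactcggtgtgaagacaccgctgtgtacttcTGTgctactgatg
Trav8d-1: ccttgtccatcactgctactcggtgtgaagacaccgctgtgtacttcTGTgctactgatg
Trav16: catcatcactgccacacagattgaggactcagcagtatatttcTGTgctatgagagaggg
Trav16d-dv11: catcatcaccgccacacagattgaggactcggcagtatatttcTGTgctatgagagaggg
Trav15n-1: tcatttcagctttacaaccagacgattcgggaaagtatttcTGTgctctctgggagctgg
Trav7d-4: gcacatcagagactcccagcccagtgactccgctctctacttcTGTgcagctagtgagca
Trav3-3: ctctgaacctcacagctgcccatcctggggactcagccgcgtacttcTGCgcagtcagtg
Trav12-1: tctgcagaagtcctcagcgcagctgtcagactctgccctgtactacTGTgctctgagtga
Trav19: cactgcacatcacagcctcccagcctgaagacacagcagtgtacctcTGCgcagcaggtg

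Over the 200 bases that end at the cysteine codon, 46 of the 120 genes that could be compared had the same sequence as another Trav gene. Trav11 (chr14:53519303-53519859) and Trav11d (chr14:52824357-52824912) had 0 mismatches in those bases, as had Trav15n-1 and Trav15d-1-dv6d-1. Trav8-1 and Trav8d-1 differed at 1 base, and Trav16 and Trav16d-dv11 at 5. Trav19, which has no copy in the annotation, differed from its nearest other gene at 62 bases. The authors' counting shares ambiguous reads between such genes, and 37% of the Trav values were not whole numbers (tolerance 0), against 14.3% of the values over all genes. Of the Trav values above 0, 74.1% were not whole. The division of counts between copies is therefore uncertain, and group means and some leading shares are also given with the copies of 1 name added together. Names do not follow likeness of sequence in every case. Trav9d-4 differs from its nearest copy of the same name at 90 of 200 bases and Trav12-1 from Trav12d-1 at 12, whereas Trav9-4 is nearest to Trav9d-2 (3 mismatches) and Trav13-2 to Trav13d-4 (4 mismatches), genes of other names. Shares of the Trav9-4, Trav12-1 and Trav13-2 names are therefore uncertain as well. The mice were of mixed background, and their own copies of the array were not analysed here.

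Library totals ran from 1.03 to 26.9 M counts, and the Trav genes together held 20 to 8044 counts per library and 143 to 15475 per mouse. Trac, the marker of an alpha chain, was at 241.6 to 376.8 CPM (counts over the library total after TMM scaling, a correction for differences in RNA composition) in 7 normal thymuses and at 61.9 CPM in normal mouse 387, where Ighm, the constant segment of the immunoglobulin mu heavy chain, was at 12691 CPM against 687.3 to 2433 CPM in the other normal thymuses. In untreated lymphoma 881 Trac was at 2.28 CPM, Cd3e at 1.81 CPM and Ighm at 5016 CPM, so the defining alpha and CD3 genes were near 0 in it while Ighm was high. Its label was kept. In the other 30 lymphomas Ighm was at 24.98 to 1008 CPM. Thymic epithelium markers (5 genes) had median sums of 29.5 to 38.2 CPM in the lymphoma groups against 1065 CPM in normal thymus, and fat markers (5 genes) 51.3 to 75.6 against 1990 CPM. Of 5 B-lineage genes (Cd79a, Cd79b, Ms4a1, Pax5 and Ighm), 5 fell in each treated group (median log2 fold changes -4.33 and -2.70) and 0 were called in untreated lymphomas (-0.06), where 26.7, 25.3 and 17.5% of all genes fell in the same order. These counts depend on the mice included. Without normal mouse 387, 2 and 0 fell in the treated groups and 1 rose in untreated lymphomas, and without mouse 881, 3 fell in untreated lymphomas. Without mice 869, 870 and 328, 4 and 3 fell in the treated groups. The edgeR fit called none of the 5 between lymphoma groups (lowest adjusted p = 0.234), and their part in the results on Trav genes was not tested. Mice 869, 870 and 328 have sex labels that their sex-linked genes contradict. Values without mice 881, 387 or these 3 are given beside the Trav genes whose call they change. In bulk tissue, fewer cells of a type and less RNA per cell cannot be told apart.

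In normal thymus the counts were spread over many segments. Trav16d-dv11 had the highest mean share of Trav counts, 3.93% ± 2.64 (SD, n = 8), followed by Trav3-3 at 3.55% ± 1.83, Trav6-3 at 2.72% ± 1.44, Trav7-4 at 2.23% ± 1.85 and Trav14-1 at 2.16% ± 0.725 (SD, n = 8 each). With copies added, the Trav16 name led at 7.80% ± 1.37 (SD, n = 8), and the Trav3-3 name followed at 5.09% ± 1.29. Every normal thymus had counts in 85 to 107 of the 128 genes, and 49 genes had counts in all 8 animals. The leading gene held 3.99% of Trav counts in mouse 961, 5.06% in 624, 5.08% in 818, 5.31% in 787, 5.83% in 980, 6.55% in 387, 7.596% in 615 and 7.64% in 978. It was Trav16d-dv11 in 4 of these mice, and Trav16 (level with Trav21-dv12), Trav3-3, Trav6-3 and Trav7-4 in 1 each. The second gene held 2.77 to 5.72% and the third 2.22 to 3.54%.

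Lymphomas had a larger leading share in all 3 groups. It ran from 5.12% (mouse 637) over a median of 25.4% to 69.4% (mouse 202) in untreated p53-/- lymphomas, from 5.43% (553) over 15.9% to 50.2% (857) in treated p53-/- lymphomas, and from 5.28% (328) over 14.8% to 55.97% (266) in treated p53+/- lymphomas. The leading share was higher than in any normal mouse in 9 of 10, 7 of 9 and 9 of 12 lymphomas, so that the groups overlapped at their low ends. The means were 31.03% ± 23.8 (SD, n = 10), 19.2% ± 13.2 (SD, n = 9) and 16.2% ± 13.3 (SD, n = 12), against 5.88% ± 1.29 (SD, n = 8) in normal thymus. The untreated difference was 25.1 points, with a two-sided exact permutation p of 0.00338 and 0.00846 after adjustment over 5 comparisons. Treated p53-/- lymphomas differed by 13.3 points (p = 0.00119 in the exact test, 0.00596 after adjustment). Treated p53+/- lymphomas differed by 10.3 points (p = 0.00846 in the exact test, 0.0141 after adjustment).

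The size of these differences rests in part on few animals. Without mice 120 and 202 the untreated difference was 15.6 points, and without mouse 266 the treated p53+/- difference was 6.71 points, both still past the test (adjusted exact permutation p = 0.00298 and 0.00499). With at least 500 Trav counts required per mouse, the treated p53+/- difference was 10.8 points and did not pass (adjusted exact permutation p = 0.0704). Among mice labelled male the untreated difference was 27.3 points and did not pass either (9 lymphomas, 4 normal thymuses, exact permutation p = 0.0294, 0.143 after adjustment), although a p as low as 0.0014 was possible there. The treated p53-/- difference was 16.4 points (4 lymphomas, adjusted exact permutation p = 0.143). The treated p53+/- difference was 1.88 points (3 lymphomas, 4 normal thymuses, adjusted exact permutation p = 0.393), and 3.06 points without mouse 328, whose male label its sex-linked genes contradict. The smallest exact permutation p for 3 against 4 mice is 0.0286, or 0.143 after adjustment if no other comparison is lower. Between lymphoma groups no difference passed. Treated minus untreated p53-/- lymphomas gave -11.8 points (p = 0.206 in the exact test, 0.258 after adjustment), and treated p53+/- minus treated p53-/- lymphomas gave -3 points (p = 0.602 in the exact test, also after adjustment).

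The effective number of Trav genes is the number of equally used genes that would give the same chance that 2 counts drawn at random come from 1 gene. It was 43.3 to 64.1 in normal thymus, with a median of 61.5. Its median was 11.2 in untreated p53-/- lymphomas (lowest 1.89, highest 50.3), 14.7 in treated p53-/- lymphomas (3.64 to 56.7) and 18.6 in treated p53+/- lymphomas (2.8 to 50.9). Below every normal thymus lay 26 of the 31 lymphomas. The exceptions were 637, 553, 870, 328 and 905, whose values of 44.1 to 56.7 lay within the range of normal thymus. On the log2 scale the groups differed from normal thymus by -2.55, -1.74 and -1.59, each with an adjusted exact permutation p of 0.0011. Treated and untreated p53-/- lymphomas differed by 0.81 (p = 0.23 in the exact test, 0.287 after adjustment).

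**Figure D1:**
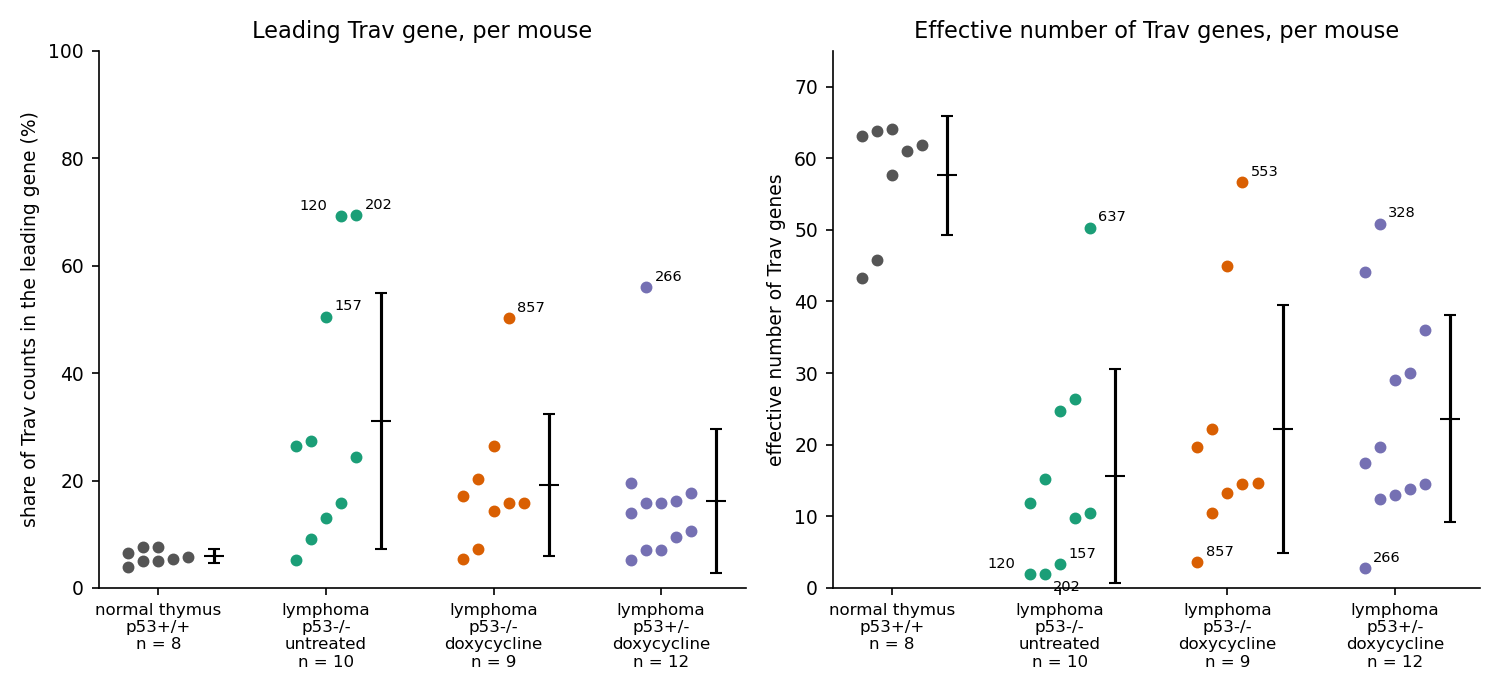
Each point is 1 mouse, with group means and SD beside the points. Left, the percent of Trav counts in the leading gene, where normal thymuses lie between 3.99 and 7.64% and lymphomas reach 69.4%. Right, the effective number of Trav genes, which is below every normal thymus in 26 of 31 lymphomas.

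The leading genes were diverse. In the 31 lymphomas 15 different genes led. Trav3-3 led in 6 of them (98, 881, 553, 659, 24 and 884) and Trav15n-1 in 5 (899, 870, 328, 903 and 905). Trav12-3 led in 3 (497, 862 and 894). Trav11d (120 and 202), Trav7d-4 (157 and 490), Trav19 (325 and 562), Trav8d-1 (663 and 857) and Trav16d-dv11 (266 and 280) led in 2 each. The others led once each, namely Trav9d-4 in 637, Trav18 in 643, Trav14n-2 in 653, Trav8-1 in 869, Trav15-1-dv6-1 in 25, Trav5-1 in 309 and Trav12d-1 in 908. With copies added, another name led in 9 lymphomas, namely 637, 643, 553, 659, 870, 24, 328, 884 and 905. The Trav9-4 name then led in 553 (9.93%) and 659 (16.1%), the Trav6-6 name in 24 (19.48%), the Trav16 name in 884 (20.18%) and the Trav14-1 name in 643, 328 and 905 (17.5, 7.28 and 10.95%). Among the genes that led by themselves, Trav15n-1 had a mean share of 0.449% ± 0.528 (SD, n = 8) in normal thymus, and Trav18 of 0.165% ± 0.177, whereas Trav3-3 and Trav16d-dv11 already ranked highest there.

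Only 5 lymphomas had a single gene above 50%. In mouse 120 Trav11d held 69.2% (95% Wilson interval 66.6 to 71.7) of 1231 counts, and Trav7-3 a further 22.1%. In mouse 202 Trav11d held 69.4%, Trav12-2 13.8% and Trav11 13.1% of 4472 counts, and with the copies of Trav11 added the first name held 82.6%. In mouse 157 Trav7d-4 held 50.5% of 752 counts, followed by Trav9d-1 (12.6%) and Trav9-1 (12.2%). In mouse 266 Trav16d-dv11 held 55.97% and Trav6-7-dv9 19.4% of 8044 counts. In mouse 857 Trav8d-1 held 50.2% of 1003 counts. Without molecular identifiers, reads are not independent molecules, and every Wilson interval given here covers counting error alone.

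A second segment stood out in some of these tumours. With copies added, the first 2 names together held 91.3% of Trav counts in mouse 120, 96.44% in 202, 77.1% in 266 and 75.4% in 157, and at most 16.2% in any normal thymus. In 7 of the 31 lymphomas the first 2 names held over 50%. Over all lymphomas the second gene had a median share of 8.37% (3.81 to 22.1%) and the third 7.43% (2.03 to 13.1%), and the genes after the third held a median of 64.7%, against 86.8% in normal thymus. In most lymphomas, then, the larger part of the Trav counts lay outside the first 3 genes.

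Some near ties lay between copies. In mouse 653 Trav14n-2 and Trav14d-2 held 15.7% each, and as 1 name 31.5%. In mouse 908 Trav12d-1 and Trav12n-1 held 7.06% each. In mouse 899 Trav15n-1 held 24.4%, and the Trav15-1 name 32.4%. Trav19 in mouse 325, which no copy can share, held 27.3% in any case. With copies added, the leading name had a mean of 34.7% ± 24.9 (SD, n = 10), 22.3% ± 12.6 (SD, n = 9) and 19.2% ± 12.6 (SD, n = 12) in the 3 lymphoma groups, against 7.97% ± 1.11 (SD, n = 8) in normal thymus, and all 3 differences again passed the test.

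The beta chain of the same mice gave a different picture. Trbv13-2 led in all 8 normal thymuses with 10.2 to 17.02% of Trbv counts. In lymphomas the leading Trbv gene held 14.02% in mouse 881 and 53.3 to 99.8% in the other 30 mice, above every normal thymus in each of those 30. The leading Trbv share exceeded the leading Trav share in 30 of 31 lymphomas, by 59.1 points ± 22.4 on average (SD, n = 31, two-sided sign-flip permutation test with 100000 draws, p = 1e-05, the smallest they can give). Mouse 881 was the exception, with a difference of -1.79 points. In normal thymus the same difference was 8.80 points ± 2.38 (SD, n = 8). Trbv has 35 genes and Trav 128, so the 2 scales do not start from the same point.

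Tumours with almost a single beta segment could hold many alpha segments. In mouse 328 Trbv26 held 97.1% of Trbv counts, while Trav15n-1 led with 5.28% and the effective number of Trav genes was 50.9. In mouse 905 Trbv29 held 98.9%, and Trav15n-1 led with 7.14%. In mouse 659 Trbv12-2 held 98.2%, and Trav3-3 led with 14.3%. Mouse 120 had the opposite form, with Trbv29 at 99.8% and Trav11d at 69.2%. Among the 12 lymphomas whose leading Trbv gene held over 90%, the leading Trav share ran from 5.28 to 69.2% with a median of 15.7%. Among the 8 lymphomas whose leading Trav gene held under 10%, the leading Trbv share ran from 56.9 to 98.9%.

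**Figure D2:**
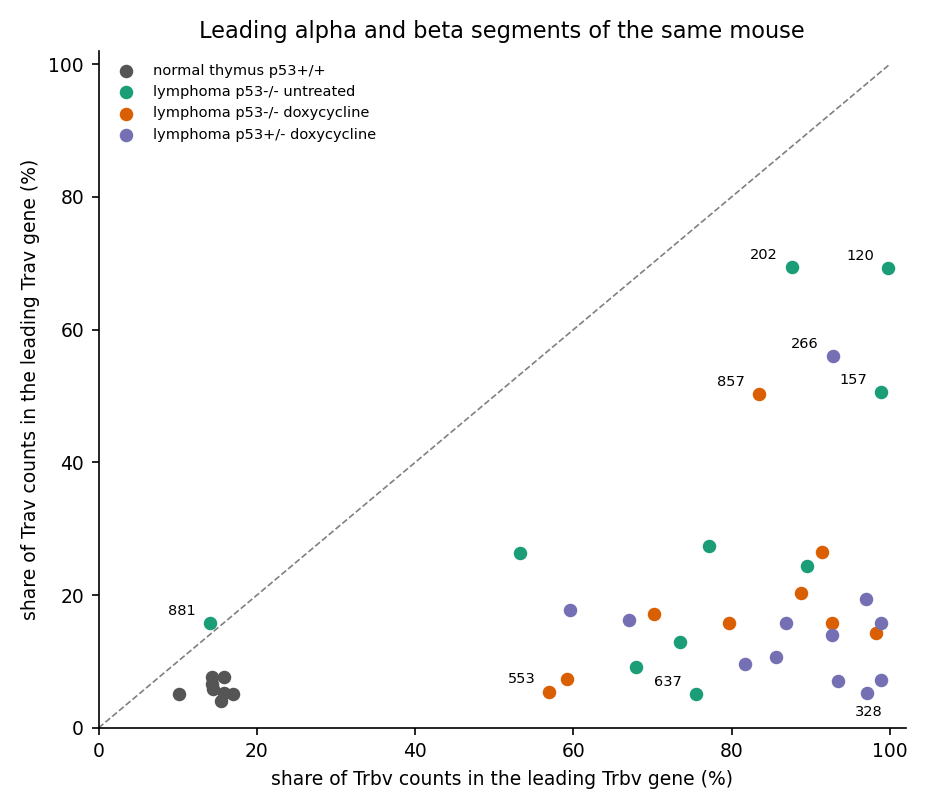
Each point is 1 mouse, with the percent of Trbv counts in its leading Trbv gene on the horizontal axis and the percent of Trav counts in its leading Trav gene on the vertical axis. All mice except lymphoma 881 lie below the dashed line of equal shares, and lymphomas with over 90% in 1 Trbv gene range from 5.28 to 69.2% on the Trav axis.

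Across lymphomas the leading Trav and Trbv shares were not shown to move together. Pearson's r was 0.25 (n = 31, permutation p = 0.169, adjusted 0.253 over 3 relations) and Spearman's rho 0.138 (permutation p = 0.458, adjusted 0.458). Without mice 881 and 562, the farthest from the median on the Trbv axis, r was 0.326. In the untreated and both treated groups (p53-/-, then p53+/-) r was 0.551, 0.415 and -0.016. The leading Trav share was also not shown to follow the log10 of the Trav counts (r = 0.192, n = 31, permutation p = 0.301, adjusted 0.301, rho = 0.138, permutation p = 0.458, adjusted 0.458). Without mice 869 and 266 this r was 0.112, and within the groups it was 0.322, -0.0396 and 0.451.

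The summed level of all Trav genes did not separate lymphoma from normal thymus. On the log2 CPM scale (prior count 2) it was 4.1 to 6.51 in normal thymus with a median of 6.12. In untreated p53-/- lymphomas it was 2.06 (mouse 881) to 7.45 (98) with a median of 6.1, in treated p53-/- lymphomas 3.67 (663) to 8.18 (869) with a median of 5.92, and in treated p53+/- lymphomas 3.04 (862) to 8.75 (266) with a median of 5.8. The lymphoma groups thus reached both above and below normal thymus. The differences of the means were -0.412, -0.0213 and -0.045, with an adjusted exact permutation p of 0.968 for each. The SD was 0.753 in normal thymus (n = 8) and 1.26 to 1.65 in the lymphoma groups. These values depend on normal mouse 387, at 4.1. Without it normal thymus lay at 5.81 to 6.51 (SD 0.228, n = 7), and the differences were -0.668, -0.277 and -0.301, which did not pass either (adjusted exact permutation p = 0.732 for each).

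Relative to Trac, Trav counts were higher in lymphoma. Normal thymuses had 21.4 to 30.45 Trav counts per 100 Trac counts. Untreated p53-/- lymphomas had 21.9 to 180 (median 38), treated p53-/- lymphomas 31.1 to 58.6 (median 40.1) and treated p53+/- lymphomas 25.8 to 106.9 (median 35.4). The ratio exceeded that of any normal mouse in 7 of 10, 9 of 9 and 10 of 12 lymphomas. On the log2 scale with 0.5 added to each count, the untreated difference was 0.754 (p = 0.00724 by exact permutation, 0.0121 after adjustment). The differences of treated p53-/- and treated p53+/- lymphomas were 0.676 and 0.618 (exact permutation, adjusted p = 0.000823 and 0.00401). Between lymphoma groups no difference in the ratio passed (adjusted exact permutation p = 0.844 for both). The highest values were those of mouse 881 (234 Trav and 130 Trac counts) and mouse 903 (106.9 per 100). In mouse 903 Trdc was at 375.3 CPM and 4 gamma-delta markers (Trdc, Tcrg-C1, Tcrg-C2 and Tcrg-C4) summed to 1551 CPM, against 51.1 CPM in normal mouse 387, 291.7 to 484.9 CPM in the other normal thymuses and a lowest lymphoma sum of 3.60 CPM. Their part in the ratio was not tested.

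**Figure D3:**
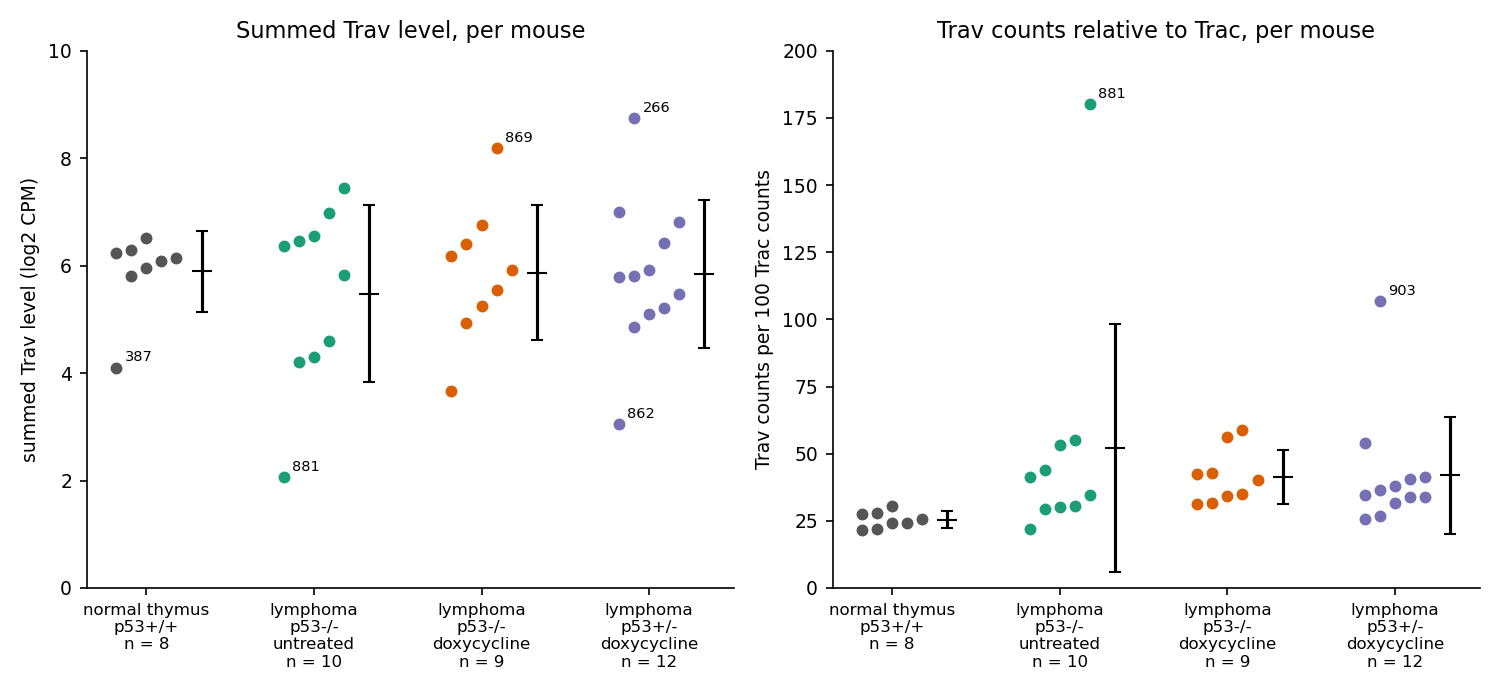
Each point is 1 mouse, with group means and SD beside the points. Left, the summed Trav level in log2 CPM, where lymphomas lie on both sides of normal thymus. Right, Trav counts per 100 Trac counts, from 21.4 to 30.45 in normal thymus and from 21.9 to 180 in lymphoma.

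Gene by gene, few segments changed in a whole group. The edgeR quasi-likelihood fit tested 17843 genes, of which 67 were Trav genes, and 61 Trav genes did not pass the filter on low counts. In untreated p53-/- lymphomas 0 Trav genes rose and 6 fell (adjusted p under 0.05), where 23.2% of all genes rose and 17.5% fell. In treated p53-/- lymphomas 1 rose and 2 fell, where 25.4% of all genes rose and 26.7% fell. In treated p53+/- lymphomas 0 rose and 3 fell, where 25.6% rose and 25.3% fell. Without scaling factors the split over all genes in untreated lymphomas was 3105 higher and 3551 lower, against 4139 and 3131 with them, and 0 Trav genes rose and 7 fell. The 67 tested Trav genes had median log2 fold changes of -0.43, -0.07 and -0.56, against 0.08, -0.04 and -0.00 over all genes. The sign of the 2 treated medians depends on the fit. With only the compared groups fitted they were 0.03 and 0.16, and without the sex covariate the treated p53-/- median was 0.11. The calls depend on the fit as well. With only the compared groups fitted, 2 of 31, 1 of 40 and 2 of 37 tested Trav genes were called, against 6, 3 and 3 of 67. Over all genes that fit called 5429 of 16466, 9482 of 16206 and 8978 of 16654. Trav14-1 and Trav7-4 passed in untreated lymphomas, where the other 4 were not tested because they did not pass that fit's filter on low counts. In treated p53-/- lymphomas none of the 3 was tested, and Trav16d-dv11 fell (-2.61, edgeR adjusted p = 0.0166). In treated p53+/- lymphomas Trav10n passed, Trav14d-3-dv8 did not (edgeR adjusted p = 0.0518), Trav11d was not tested and Trav15n-1 rose (2.33, edgeR adjusted p = 0.0428). A gene that is high in 1 tumour and absent from the next has a wide spread, and the 3 comparisons share the same normal thymuses.

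Several of the segments that fell had no counts in most lymphomas of their group. Trav5-4 had no counts in 8 of 10 untreated lymphomas and at most 0.22 CPM in the others, against a median of 0.632 CPM in normal thymus (log2 fold change -3.48, SE 1.04, adjusted p = 0.00746). Trav16 was at 0 in 7 of 10 (-3.82, SE 1.41, adjusted p = 0.0286), and Trav14-2 was at 0 in 3 of 10 (-2.92, SE 1.13, adjusted p = 0.0361). The other 3 that fell there were Trav14-1, Trav14-3 and Trav7-4. In treated p53-/- lymphomas Trav21-dv12 was at 0 in 6 of 9 and below every normal thymus in 7 of 9 (-3.61, SE 1.28, adjusted p = 0.0175), and Trav19 was at 0 in 7 of 9 (-3.72, SE 1.58, adjusted p = 0.0464). Among normal thymuses Trav16 was also at 0 in 2 of 8, and Trav5-4, Trav14-2 and Trav19 in 1 of 8 each. For these 4 genes no lymphoma of the group could therefore lie below every normal thymus. Trav19 did not pass without normal mouse 387 (adjusted p = 0.0507) or without mice 869, 870 and 328 (adjusted p = 0.0754), and Trav14-2 did not pass without mouse 881 (adjusted p = 0.0507). Trav7-4 did not pass in untreated lymphomas without mouse 881 (adjusted p = 0.0568) or without mouse 387 (adjusted p = 0.0512). Without mice 869, 870 and 328, Trav10 fell in both p53-/- groups (untreated -3.60, treated -3.04, edgeR adjusted p = 0.0087 and 0.0477) and Trav7-4 in the treated one (-2.93, adjusted p = 0.0464). With all mice Trav10 did not pass, at -3.20 untreated and 1.63 treated (edgeR adjusted p = 0.0531 and 0.365). Its sign in treated p53-/- lymphomas thus depended on these mice. Treated Trav7-4 did not pass with all mice either (-0.63, edgeR adjusted p = 0.664). In treated p53+/- lymphomas Trav11d had a median of 0.119 CPM against 1.07 CPM in normal thymus (-3.16, SE 1.19, adjusted p = 0.0257), and Trav14d-3-dv8 (-2.21) and Trav10n (-2.08) fell as well. With copies added, the names of Trav16, Trav5-4 and Trav14-2 no longer passed in untreated lymphomas (adjusted p = 0.342, 0.213 and 0.262), and 1 of 38 tested names, Trav14-3, was called there. The Trav14-1 name did not pass either (edgeR adjusted p = 0.509), and the Trav7-4 name turned from -2.84 for the gene to 0.75 (edgeR adjusted p = 0.62). In treated p53+/- lymphomas the Trav11 name still passed (-3.07, edgeR adjusted p = 0.028), and the Trav14-3 and Trav10 names did not (edgeR adjusted p = 0.131 and 0.092). The Trav6-4 and Trav6-5 names were called there only with copies added (-2.777 and -1.915, edgeR adjusted p = 0.0244 and 0.0263).

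Trav15n-1 was the single Trav gene that rose in these 3 comparisons of the edgeR fit over all 4 groups. Its level in treated p53-/- lymphomas was 0.0837 to 8.15 CPM with a median of 1.85, against 0 to 1.49 CPM with a median of 0.268 in normal thymus. It lay above every normal thymus in 5 of 9 lymphomas (log2 fold change 2.91, SE 1.14, adjusted p = 0.03025). Its counts are divided with those of Trav15d-1-dv6d-1, which has 0 mismatches to it over 200 bases, and with copies added the Trav15-1 name did not pass (1.66, SE 0.822, edgeR adjusted p = 0.0875). The name that rose there was Trav8-1 (3.48, edgeR adjusted p = 0.0181). Without mice 869, 870 and 328 the rise did not pass (2.41, adjusted p = 0.137). Among the lymphoma groups themselves the edgeR fit tested 16389 genes and 32 Trav genes. It called 0.0% of all genes in treated against untreated p53-/- lymphomas and 0.0% in treated p53+/- against treated p53-/- lymphomas, and 0 Trav genes in either. At an unadjusted p under 0.05 there were 1917 and 864 genes over the whole table and 2 Trav genes in each contrast, and DESeq2 called 76 and 12 genes over the whole table but also 0 Trav genes.

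Separate biopsies of a tumour carried similar Trav profiles. The overlap of 2 libraries is the sum, over genes, of the smaller of both shares, so that 100% means the same profile. In the 12 tumours with at least 2 biopsies of 100 or more Trav counts, biopsies of 1 tumour overlapped by 68.1% ± 10 on average (SD, n = 12), and by 24.7% ± 11.5 with biopsies of other tumours of the same group. The overlap was larger within the tumour in 12 of 12, by 43.4 points (two-sided exact sign-flip permutation p = 0.000488, the smallest that 12 tumours can give). It ranged from 50.5% in tumour 884 to 84.2% in tumour 325. With copies added it ranged from 60.4% in tumour 884 to 95.4% in tumour 202, which had 73.4% by gene. The overlap by gene therefore depends on how counts were divided between copies. For Trbv, which has fewer genes and had more counts, the overlap within these tumours averaged 85.5%.

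**Figure D4:**
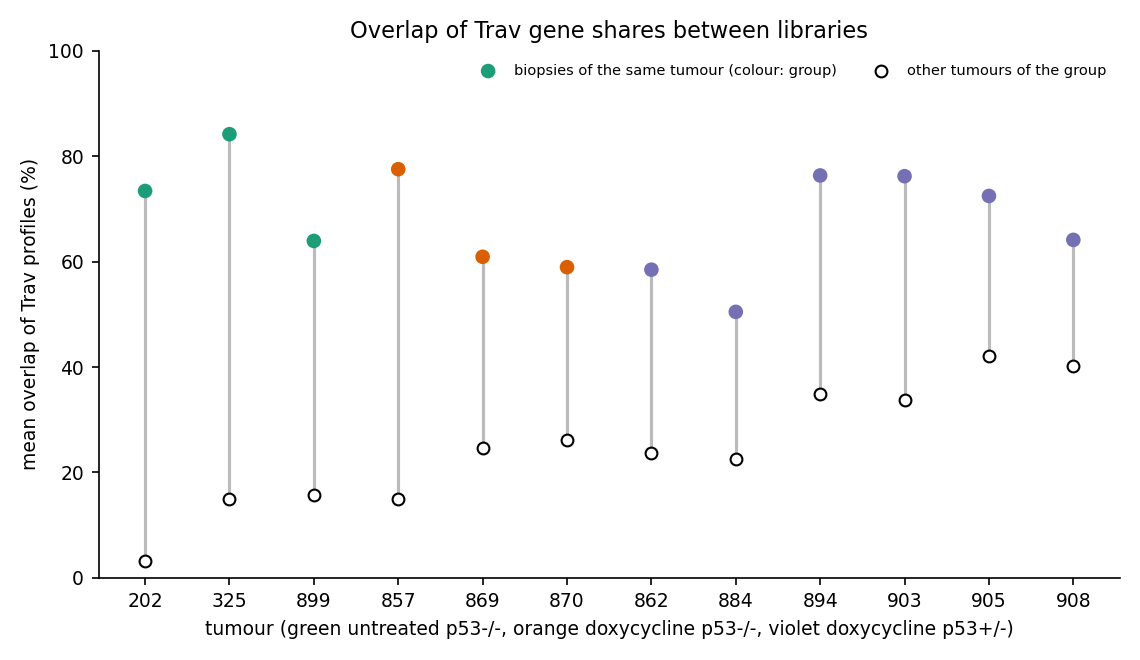
For each of 12 tumours, the filled point is the mean overlap of Trav gene shares between its own biopsies, and the open point the mean overlap with biopsies of other tumours of the same group, both in percent. The filled point is higher in all 12 tumours, and the gap is widest in tumour 202.

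The leading Trav gene was the same in all biopsies of 6 of these 12 tumours. In tumour 325 Trav19 held 31.8, 25.9, 24.7 and 28.2%, with Trbv13-3 at 75.6 to 79.6%. In tumour 857 Trav8d-1 held 47.2, 55.95 and 45% in the 3 biopsies with enough counts and 32.7% of 55 counts in the other biopsy. In tumour 899 Trav15n-1 held 14.7 to 32.9% over 5 biopsies, with Trbv31 at 88.4 to 90.5%. In tumour 894 Trav12-3 held 11.9 to 20.25%, with Trbv13-3 at 78.2 to 89.8%. With copies added, tumour 894 was less uniform. The Trav12-2 name then led 894_5 (14.98% against 13.08% for Trav12-3) and was level with Trav12-3 in 894_1 at 20.18%, while Trav12-3 led 894_3 (13.92%) and 894_7 (21.52%).

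In tumour 202 the division between 2 copies changed from biopsy to biopsy. Trav11d held 42.7, 84.7, 61.9 and 84.0%, and Trav11 held 36.1, 0, 19.96 and 0%. Their sum with Trav11n was 78.8, 84.8, 81.95 and 84.0%, so it varied far less than either copy. These copies have 0 mismatches over their shared transcript length, and their ends stand among the sequences printed above. Trav12-2 stayed at 11.3 to 15.8% and Trbv13-2 at 86.3 to 89.2%.

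In other tumours the leading Trav gene changed while the leading Trbv gene stayed the same. Of the 12 tumours, 10 had the same leading Trbv gene in all biopsies, and in 4 of those 10 the leading Trav gene still changed (862, 903, 905 and 908). With copies added there were also 4, namely 862, 894, 905 and 908, since the Trav15-1 name then led all 4 biopsies of 903 at 16.88 to 18.65%. Some of these leads were narrow. In 903_7 Trav17 held 11.5% (Wilson interval 9.1 to 14.4) against 7.9% (5.94 to 10.4) for Trav15n-1. In 908_9 the leading gene had 18 of 248 counts and Trav17 had 16. Tumour 862 had more than 1 large beta segment. Trbv13-1 led all its biopsies with 55.5 to 61.1%, beside Trbv14 at 11.8 to 25.4% and Trbv13-2 at 8.25 to 14.1%. The leading Trav gene differed among its 4 biopsies with at least 100 counts. Trav13d-2 and its identical copy Trav13n-2 were level in 862_1 at 20.3% each, and Trav3-3 and Trav9-2 were level in 862_3 at 14.19%. Trav12-3 led 862_7 (29.7%) and Trav9-2 led 862_9 (17.1%). These 4 biopsies held only 123 to 182 Trav counts, and the Wilson intervals of the leading shares reach from 14.4 to 27.8% in the first and from 23.5 to 36.7% in the biopsy led by Trav12-3. In tumour 905 Trbv29 held 98.3 to 99.2%, and the leading Trav share was 6.23 to 10.99%. In tumour 908 Trbv13-2 held 92.8 to 94.1%, and the Trav12-1 name held 24.0% in biopsy 908_3 and 8.64% in 908_7. That name led both of them, in 908_7 against 8.56% for the Trav16 name. Biopsy 908_9 was led by the Trav15-1 name, at 12.9% against 12.1% for the Trav14-1 name.

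In 2 tumours both chains changed between biopsies. Biopsy 884_2 was led by Trbv20 (90.2%) and Trav12-1 (22.5%, Wilson interval 20.7 to 24.5). Biopsies 884_5 and 884_8 were led by Trbv13-2 (74.97 and 80.9%), with Trav3-3 at 33.7 and 33.7% and Trav16 at 29.9 and 31.8%. Trav12-1 had 4 counts in 884_5 and 0 of 519 in 884_8, which allows a share of up to 0.735% by the Wilson interval. Biopsy 884_6 held both sets, with Trbv13-2 at 51.1%, Trbv20 at 38.5%, Trav3-3 at 24.8% and Trav12-1 at 5.37%. The Trav overlap was 83.99% between 884_5 and 884_8 and 19.2% between 884_2 and 884_8, which is below the mean overlap of tumour 884 with other tumours (22.6%).

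In tumour 870 Trbv17 held 91.8 and 91.2% in biopsies 870_1 and 870_3, and Trbv13-2 66.5 and 74.3% in 870_5 and 870_7. Trav12d-2 and Trav12n-2 held 14.3% each in 870_1 and 4% each in 870_3, while Trav15n-1 led the other 3 biopsies with 9.88, 8.64 and 6.99%. With copies added, the Trav12-2 name led 870_1, the Trav15-1 name 870_3 and 870_5, and the Trav9-4 name 870_7 (9.385% against 8.35% for Trav15-1). The Trav overlap of 870_1 with 870_7 was 42.96% and their Trbv overlap 6.04%. In tumour 869 Trbv3 held 93.6 to 95.2% in 3 biopsies, and 47.6% in 869_3, where Trbv13-2 held 35.4%. In that biopsy Trav8d-1 held 13.6% of Trav counts against 0.168 to 0.31% in the others, beside Trav8-1 at 14.2 to 29.2% in all 4. Trav8-1 and Trav8d-1 differ at 1 base in 200.

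**Figure D5:**
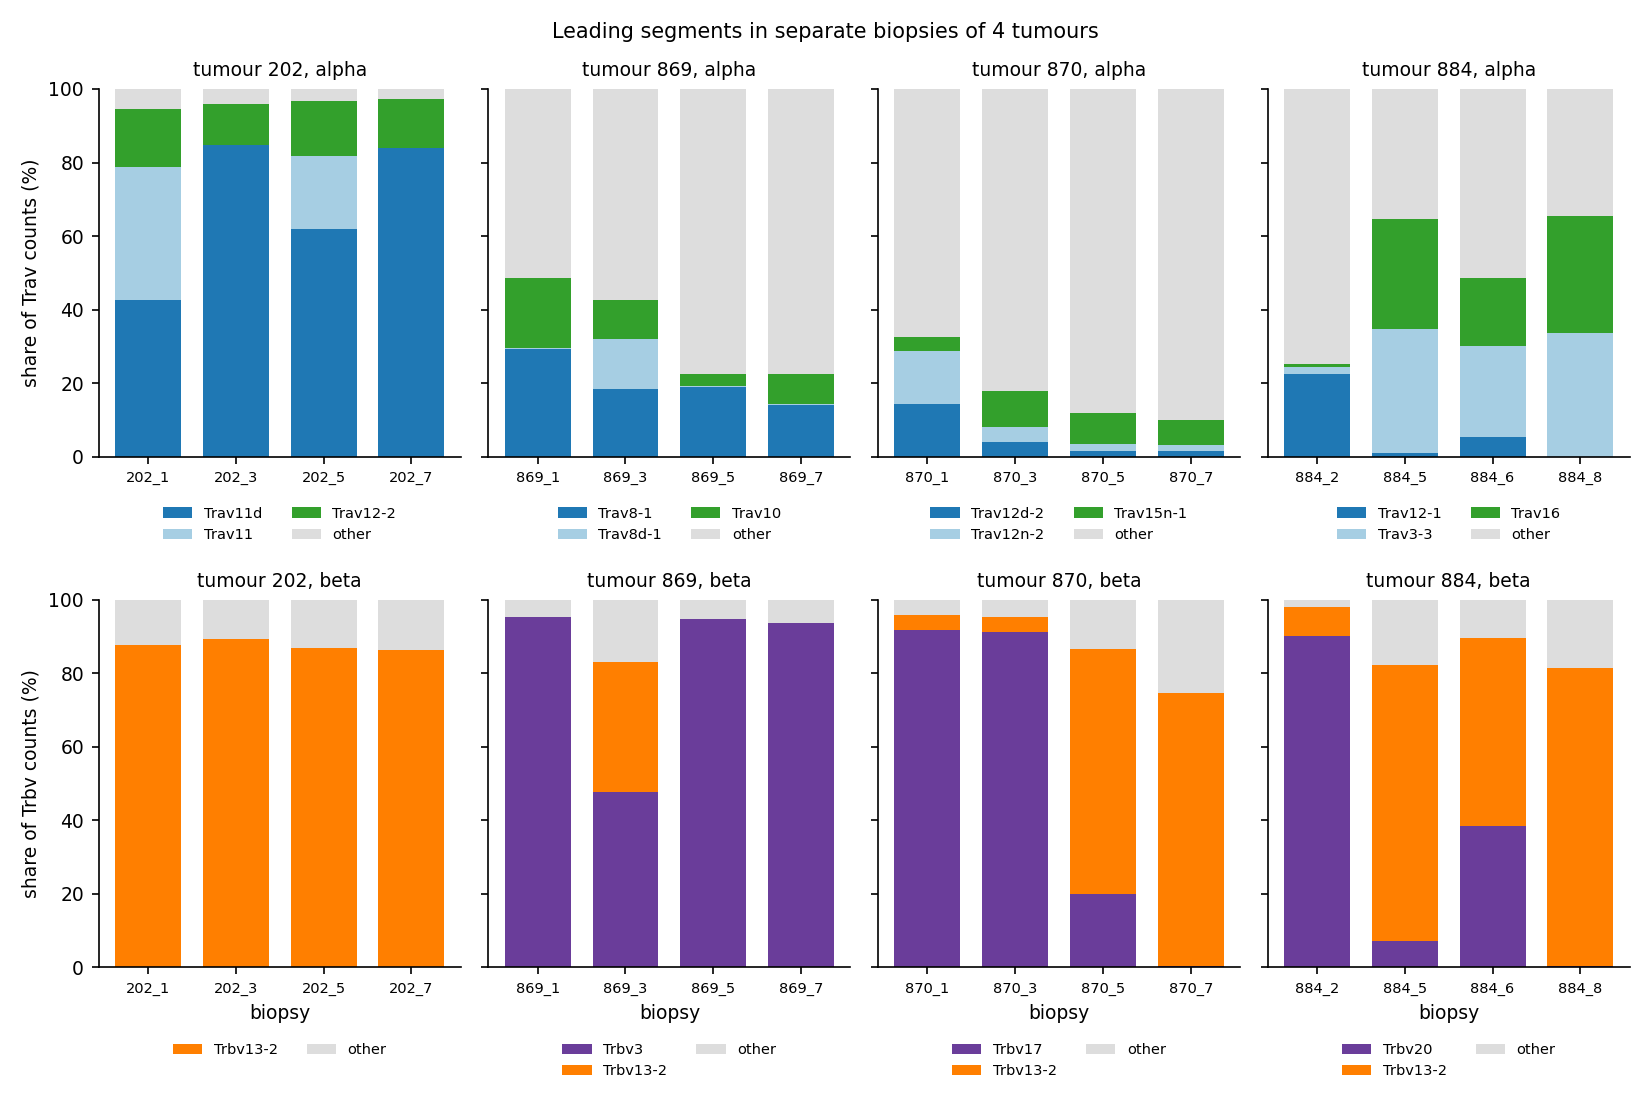
Stacked bars give the percent of Trav counts (top row) and of Trbv counts (bottom row) held by named segments in each biopsy of tumours 202, 869, 870 and 884, with all other segments in grey. Trav11d leads all 4 biopsies of tumour 202, whose Trav11 share is 36.1, 0, 19.96 and 0%, while biopsy 884_2 shares little with 884_8, and 869_3 holds 2 large Trbv segments.

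The delta constant segment was measured beside Trav because it is lost from a chromosome that has joined alpha. Trdc was at 21.5 CPM in normal mouse 387, at 68.1 to 159.9 CPM in the other 7 normal thymuses and below 1 CPM in 17 of 31 lymphomas. The edgeR fit did not call it in any comparison with normal thymus (adjusted p = 0.341, 0.0508 and 0.182). In treated p53-/- lymphomas it fell by 4.31 on the log2 scale without mouse 387 (edgeR adjusted p = 0.0496) and by 3.84 with only the compared groups fitted (edgeR adjusted p = 0.00238). It was at 0 in 4 lymphomas, 120, 202, 24 and 280, whose leading Trav shares were 69.2, 69.4, 15.74 and 9.556%. The highest values in lymphomas were 375.3 CPM in mouse 903, 153.6 in 643, 70.2 in 899 and 60.7 in 653, in which Trav15n-1, Trav18, Trav15n-1 and Trav14n-2 led. In tumour 869 Trdc was at 38.8 CPM in 869_3 and at most 0.0565 CPM in the other biopsies. In tumour 870 it was at 0.352 and 0 CPM in the Trbv17 biopsies and at 71.4 and 10.4 CPM in the Trbv13-2 biopsies.

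Joining segments were short and had few counts, between 1 and 650 per lymphoma. Traj2 led in 9 of the 31 lymphomas (98, 637, 497, 857, 869, 870, 309, 328 and 862) and in 3 of 8 normal thymuses. In normal mice 387 and 980 Traj2 was level with Traj58, at 2 and 8 counts each. It had 80 of 101 Traj counts in mouse 98, 49 of 49 in 857, 50 of 56 in 497 and 40 of 43 in 862. In mouse 266, where Trav16d-dv11 dominated, Traj32 had 224 of 299 counts. In tumour 884 Traj40 had 46 of 81 counts in the Trav12-1 biopsy 884_2, and biopsies 884_5 and 884_8, led by Trav3-3, had 6 and 7 Traj counts in all, too few to name a segment.

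The position of the counts along the array was described by the distance from each gene's end to the most upstream joining segment, as the median over a mouse's Trav counts. It was 724.6 to 987.8 kb in normal thymus. Lymphomas spread wider, from 488.5 kb in mouse 325 to 1385 kb in mice 157, 490 and 309. Trav19, which led in 325 and 562, lies 309.2 kb from the joining segments. Trav5-1, which led in 309, lies 1532 kb away, near the far end of the array. Where a gene has a copy elsewhere in the array, its position is as uncertain as the division of its counts.

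The summed Trav level was set against the expression of chromosome 14, taken as the median log2 ratio to normal thymus over 518 other genes there, relative to all autosomes. Across lymphomas Pearson's r was 0.432 (n = 31, permutation p = 0.0153, adjusted 0.0459 over 3 relations) and Spearman's rho 0.466 (permutation p = 0.0094, adjusted 0.0282). Without mice 157 and 562, the farthest from the median shift, r was 0.435, and without mouse 881 it was 0.503. In the untreated and both treated groups (p53-/-, then p53+/-) r was 0.222, 0.549 and 0.604. Both measures come from the same libraries and share their scaling.

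Genes of the receptor and its signalling were taken as a list of 14. In untreated p53-/- lymphomas 1 rose and 4 fell, in treated p53-/- lymphomas 1 rose and 2 fell, and in treated p53+/- lymphomas 1 rose and 3 fell. Over all genes 23.2, 25.4 and 25.6% rose and 17.5, 26.7 and 25.3% fell in these comparisons. With 14 genes these counts describe the list and are no result about it as a whole. The riser was Zap70, the kinase that binds the activated receptor, in all 3 groups (log2 fold changes 0.87, 0.97 and 0.86, edgeR adjusted p = 0.00231, 0.000436 and 0.00109). Cd4, a coreceptor, fell by 2.35, 2.49 and 2.14 (edgeR adjusted p = 0.00023, 0.000119 and 0.000246), and Cd5, an inhibitor of receptor signals, fell by 1.46, 2.17 and 1.84. Trac itself had log2 fold changes of -0.26, -0.40 and -0.36 and did not pass (adjusted p = 0.783, 0.644 and 0.679), nor did Trbc1 or Trbc2. The list's median was -0.74, -0.29 and -0.26, against 0.08, -0.04 and -0.00 over all genes.

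Of 12 genes for the joining of alpha segments, 3, 4 and 3 rose and 2, 1 and 1 fell in the same order of groups, beside the same shares over all genes and again as a description. Tcf12 and Tcf3, which encode E proteins, and Rad21, a cohesin subunit, rose in all 3. Rad21 rose by 0.83, 1.32 and 1.36 on the log2 scale (edgeR adjusted p = 0.00359, 1.215e-05 and 5.876e-06). Bcl2l1, a survival gene of thymocytes in the stage of alpha rearrangement, fell by 1.81, 1.39 and 1.81. Rag2, part of the enzyme that cuts the segments, fell in untreated lymphomas (-2.24, SE 0.84, adjusted p = 0.0313), and the edgeR tests of the difference between lymphoma groups did not pass (adjusted p = 0.543 and 0.968). Its partner Rag1 had -1.42, -0.20 and -1.17 and did not pass.

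Of 13 genes of the stage before alpha rearrangement, 3, 3 and 5 rose and 1, 2 and 0 fell, which is read in the same way against the shares over all genes. Notch1 rose by 2.68, 3.17 and 3.13 and its target Dtx1 by 4.33, 3.40 and 3.86. Ptcra, which pairs with beta before an alpha chain exists, rose both in treated p53-/- (2.42, SE 0.961, adjusted p = 0.0335) and in p53+/- lymphomas (2.20, SE 0.929, adjusted p = 0.0458), and had 0.81 in untreated lymphomas (adjusted p = 0.518). Tcrg-C1 and Tcrg-C2, constant segments of the gamma chain, fell in treated p53-/- lymphomas by 3.47 and 3.28. None of the genes in the 3 lists was called between lymphoma groups. Some of these calls depend on the fit. Ptcra did not pass in either treated group without normal mouse 387 (edgeR adjusted p = 0.0521 and 0.0713) or without the filter on low counts (0.0715 and 0.09). In treated p53+/- lymphomas it also failed without scaling factors (edgeR adjusted p = 0.0545), without the sex covariate (0.053) and without mice 869, 870 and 328 (0.0655). Without the filter, Rag2 in untreated and Tcrg-C2 in treated p53-/- lymphomas did not pass (edgeR adjusted p = 0.0682 and 0.0717). With only the compared groups fitted, Cd5, Tcf12, Rag2 and Dtx1 did not pass in untreated lymphomas (edgeR adjusted p = 0.0533, 0.064, 0.0989 and 0.0593). Without scaling factors Tcf12 in untreated and Tcf3 in treated p53-/- lymphomas did not pass (edgeR adjusted p = 0.0643 and 0.0588), and without the sex covariate Tcrg-C2 did not (0.0556).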

How the data were processed

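RNA sequencing was measured in 81 libraries from 40 mice. The deposited values are expected counts per gene, which the authors made with CASAVA 1.8, fastp, STAR 2.7.2b and RSEM 1.1.17 on mm10, per the submitters' processing notes. The role of each tool beyond its name is not given in the sources used here. Counts were rounded per library and summed per mouse. Whether the mice came from separate litters is not given in the sources used here, so p-values measure the spread between mice. All 128 symbols starting with Trav were found in GENCODE M21 (GRCm38).

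The members and gene lists were chosen with earlier results of these data known. Shares, effective number, summed level and Trav per Trac were compared by exact two-sided permutation with Benjamini-Hochberg adjustment over 5 comparisons. Levels used TMM scaling with a prior count of 2. Single genes were tested with edgeR 4.0.16 in R 4.3.3 (quasi-likelihood, filterByExpr by group, TMM, labelled sex as covariate, adjusted over all tested genes), 1 fit with normal thymus and 1 among lymphomas. DESeq2 1.42.0 was an alternative. Genes named are every Trav gene that led in a mouse, the 5 of highest normal share and the 3 largest called rises and falls per comparison. Other fits omitted the filter, the scaling, the sex term or doubtful mice, or added near-copies. Libraries under 100 Trav counts (5 of them) were left out of biopsy comparisons. One marker gene is not reported here, and the list that holds it is described by its other 5 genes. Python 3.11.15 with scipy 1.17.1 was used. The fit was tested on simulated data.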

Additional observations from a re-analysis of the deposited data

Results flagged for a closer look

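Over 5 measures, the groups of 8, 9 and 10 mice were tested for a single distant mouse, and the group of 12 treated p53+/- lymphomas was not. Of these 15 tests 5 found one, where chance gives about 1 in 20. In treated p53-/- lymphomas mouse 857 had a leading Trav share of 50.2%, and the other mice lay between 5.43 and 26.5%. In untreated p53-/- lymphomas mouse 637 had an effective number of 50.3 Trav genes, and the others 1.89 to 26.4. Normal mouse 387 had a summed Trav level of 4.1 log2 CPM against 5.81 to 6.51 in the other normal thymuses, beside the high Ighm and fat markers of that library. Untreated lymphoma 881 had a log2 ratio of Trav to Trac of 0.846, and the others -2.19 to -0.856, beside its high Ighm level. Normal mouse 624 had a leading Trbv share of 10.2%, and the others 14.3 to 17.02%.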

How the results depend on the processing

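Of the main results under all alternatives, 295 values kept their direction and their side of the threshold, 12 lost the threshold and 6 counts moved by over 1.5 times. For single genes these were 64 and 14. None of these results was counted as reversed, but some signs turned. Trav7-4 in untreated lymphomas turned from -2.84 for the gene to 0.75 for the name with near-copies added (edgeR adjusted p = 0.62). Trav10 in treated p53-/- lymphomas, not called with all mice, turned from 1.63 to -3.04 without mice 869, 870 and 328. The median log2 fold change of the tested Trav genes, which has no test, turned from -0.56 to 0.16 in treated p53+/- lymphomas with only the compared groups fitted. In treated p53-/- lymphomas it turned from -0.07 to 0.03 in that fit, and to 0.11 without the sex covariate. With at least 500 Trav counts per mouse, the treated p53+/- difference in leading share was 10.8 points (adjusted exact permutation p = 0.0704). Among mice labelled male (4 normal, 9, 4 and 3 lymphomas), the differences in leading share were 27.3, 16.4 and 1.88 points (adjusted exact permutation p = 0.143, 0.143 and 0.393), those in log2 effective number -1.86 and -0.585 in the treated groups (adjusted exact permutation p = 0.143 for both), and those in log2 Trav per Trac 0.768, 0.558 and 0.538 (adjusted exact permutation p = 0.172, 0.143 and 0.143). Without mouse 328 as well (869 and 870 are not labelled male), chosen after seeing the data, the differences in leading share were 27.3, 16.4 and 3.06 points. The smallest exact permutation p is 0.0286 with 4 or 3 lymphomas against 4 normal thymuses, or 0.143 after adjustment if alone, so a lost threshold there says nothing about stability. With 9 untreated lymphomas it can reach 0.0014, so the untreated differences in leading share and in Trav per Trac were lost in tests that could have passed. Called Trav genes in untreated lymphomas numbered 2 of 31 tested with only the compared groups fitted (over all genes 5429 of 16466). They numbered 1 of 38 names with near-copies added (7268 of 17814), against 6 of 67 (7270 of 17843). In treated p53-/- lymphomas they numbered 5 of 67 with DESeq2 (over all genes 9843 of 17843) and 6 of 124 without the filter (10854 of 38749). With only the compared groups fitted they numbered 1 of 40 (9482 of 16206), against 3 of 67 (9293 of 17843). In treated p53+/- lymphomas they numbered 6 of 124 without the filter (10729 of 38749), against 3 of 67 (9079 of 17843). Except with DESeq2, these settings also changed which Trav genes were tested, and a gene not tested cannot be called. Other causes were not tested. The differences without mice 120 and 202, 266, 857 or 881 were chosen after seeing the data. Depth limits single biopsies of tumours 857, 862 and 881 most.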

Other observations

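Mice 120 and 202, chosen after their values were seen, shared more than their leading segment Trav11d. Of the joining segments, Traj18 held 65 of 72 counts in mouse 120 and 92.16% of them, or 94 counts, in mouse 202, against 0 to 5 Traj18 counts in the other 29 lymphomas. Within tumour 202 it led in all 4 biopsies, with 17 of 19, 26 of 28, 33 of 34 and 18 of 21 counts. Traj18 (chr14:54200777-54200842) is shown here with the motif that follows the joined end in capitals.
Traj18: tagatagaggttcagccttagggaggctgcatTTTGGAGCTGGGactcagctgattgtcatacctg
As background, Trav11 joined to Traj18 is known from the alpha chain of invariant natural killer T cells, and Zbtb16 encodes a transcription factor known from those cells. Zbtb16 was at 160.5 CPM in mouse 120 and 203.3 CPM in mouse 202, against 0.402 to 12.1 CPM in the other lymphomas, 78.7 CPM in normal mouse 387 and 7.12 to 19.3 CPM in the other normal thymuses. Other genes known from natural killer T cells or their development did not follow one pattern. Klrb1c, which encodes NK1.1, was at 10.46 CPM in mouse 120 but 0.349 CPM in mouse 202, against 0 to 1.77 CPM in the other lymphomas and 1.44 to 7.33 CPM in normal thymus. Slamf1 was at 0.43 and 3.35 CPM, below the other lymphomas (4.62 to 34.2 CPM) and normal thymus (10.5 CPM in mouse 387, 32 to 49.9 CPM in the others). Slamf6 was at 2.29 CPM in mouse 120 and 698 CPM in mouse 202, against 33.5 to 414.1 CPM in the other lymphomas. Rag1, part of the enzyme that cuts the segments, was at 1.504 and 0.331 CPM, against 26.7 to 2419 CPM in the other lymphomas. Their beta chains differed, with Trbv29 at 99.8% in mouse 120 and Trbv13-2 at 87.6% in mouse 202. Cd8a was at 152.6 CPM in mouse 120, at 4.52 CPM in mouse 202 and at 3.95 to 1131 CPM (median 610.7) in the other 29 lymphomas. Mice 881 (3.95 CPM), 266 (48.4 CPM), 157 (50.04 CPM) and 884 (62.6 CPM) also lay below mouse 120, so low Cd8a was not particular to this pair. No test was made of this pair, since it was chosen for its values.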
